A study of Mus musculus with 6 samples.

Results

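Proteasome subunit genes were examined in DN3a thymocytes of wild-type mice and of mice carrying the transgene Tg_Cd2_GATA3. The members were all gene symbols that start with Psma, Psmb, Psmc, Psmd, Psme, Psmf or Psmg followed by a digit, which gave 53 of the 41254 symbols in the deposited transcript table, spread over 227 transcripts. Of the 53, 48 are core subunits, regulatory particle subunits, activators, an inhibitor or assembly chaperones, and 5 match by name alone: Psmc3ip, Psme2b and 3 pseudogenes. DN3a is a stage of early T cell development, without CD4 or CD8 at the surface, in which the T cell receptor beta genes are being rearranged. All animals were adult and of the C57BL/6 strain, and the 3 wildtype libraries were compared with the 3 transgenic ones. The wild-type mice had no other allele or treatment in the labels, and their stage and strain were those of the transgenic mice. The series title describes the transgene as GATA3 overexpression. The labels give no promoter beyond the Cd2 in its name, no founder line, no sex and no species of origin of the GATA3 sequence. They give each library its own sample name but do not say that each came from its own mouse, so the p-values below measure the spread between these libraries, which may be technical.

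The proteasome is the protease that degrades most ubiquitin-tagged proteins of the cytosol and nucleus. Its barrel-shaped core consists of stacked rings of alpha and beta subunits, with the cleaving sites on the beta subunits Psmb5, Psmb6 and Psmb7. A regulatory particle sits on the end of the barrel: a base with a ring of ATPases (Psmc genes) unfolds the substrate, and base and lid subunits without ATPase activity (Psmd genes) bind and remove ubiquitin. In cells of the immune system or after interferon, Psmb8, Psmb9 and Psmb10 take the places of Psmb5, Psmb6 and Psmb7 and form the immunoproteasome, whose peptides suit presentation on MHC class I. In the thymus a further catalytic subunit, Psmb11, belongs to cortical epithelial cells and shapes the selection of CD8 T cells.

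Total RNA was sequenced after removal of ribosomal RNA, and the libraries held 39022281 to 46985605 fragments. Gata3 itself had 49.1, 38.2 and 43.5 CPM (fragments scaled for library depth) in wild-type replicates 1 to 3 and 58.6, 53.6 and 61.6 CPM in the transgenic ones. Every transgenic library was above every wild-type library, by 0.41 on the log2 scale (SE 0.10), with an adjusted p of 0.170 in edgeR's quasi-likelihood test and of 0.00712 in DESeq2. Fragments of 4 Y-linked genes numbered 18522 in 1 wild-type library (replicate 1) and 16840 in 1 transgenic library (replicate 3), against 16 to 26 in the others, so results are also given within these 2 kinds of library. The 6 DN3a markers (Il2ra, Ptcra, Cd3e, Rag1, Dntt, Notch1) summed to 1927 to 2453 FPKM, fragments scaled for transcript length and library depth. The 3 markers of double-positive thymocytes (Cd4, Cd8a, Cd8b1), a later stage, summed to 9.55, 11.6 and 12.8 FPKM in wild-type and to 8.40, 4.08 and 3.71 FPKM in transgenic libraries. Markers of B cells summed to at most 0.205 FPKM. The 3 red cell markers summed to 2.27, 0.740 and 7.14 FPKM in the wild-type and 4.52, 6.52 and 14.1 FPKM in the transgenic libraries, with 3 of 3 fitted above 0 and overlapping groups. The 7 markers of dendritic cells and macrophages summed to 24.7 to 27.1 FPKM in wild-type and 26.2 to 31.7 FPKM in transgenic libraries. Of the 7, 3 had fitted values below 0 and 4 above. Only Cd74 was higher in every transgenic library (1.0 on the log2 scale, SE 0.36, edgeR adjusted p = 0.277), and 0 were lower in every one. Being higher in every transgenic library held for 8.73% of all genes. Of 7 markers of thymic epithelium, Foxn1 and Krt5 were listed at 0 in every wild-type library, and most of the 44.0 to 52.0 FPKM of that list belonged to Epcam.

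Nearly all proteasome genes were transcribed at high level in both genotypes. Of the 53 members, 47 had a mean above 5 FPKM over the 6 libraries, and together the members took 0.653% to 0.747% of all fragments. The most abundant was Psmb8, the immunoproteasome subunit that replaces Psmb5, at a mean of 408 FPKM and between 389.8 and 421 FPKM in single libraries. Its lowest library stood above the highest library of every other member. An exon of Psmb8 overlaps Gm20496 on the other strand, and no source used here gives the strand setting. Next came the alpha subunits Psma2 at 267 FPKM and Psma3 at 240.0 FPKM and the constitutive catalytic subunit Psmb6 at 239 FPKM, whose ranges over libraries overlapped. From there down to Psmd2 at 116 FPKM every member overlapped its neighbour in the order, so this stretch has no firm ranking. The other immunoproteasome subunits were far lower, Psmb10 at 86.3 FPKM and Psmb9 at 74.7 FPKM, close to Psmb5 at 97.4 FPKM.

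Core and regulatory particle genes overlapped in level on this per-length scale. Among the ATPases Psmc4 was highest at 131 FPKM and Psmc2 lowest at 39.9 FPKM. Among the other base and lid subunits the range ran from Psmd2, a scaffold of the base, at 116 FPKM to Psmd11, a lid subunit, at 28.1 FPKM. The activator subunit Psme1, which with Psme2 forms an interferon-induced cap for the core, reached 213 FPKM. Psme4, the gene of another cap, stood at 23.2 FPKM. Assembly chaperones spanned from 63.2 FPKM for Psmg4 to 14.2 FPKM for Psmd9.

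The tissue-restricted forms were near the bottom. Psma8, an alpha subunit of the testis, had 15, 57 and 103 fragments in wild-type replicates 1 to 3 and 9, 36 and 14 in the transgenic ones. Psmb11 had 2, 1 and 17 fragments in the wild-type libraries and 17, 5 and 1 in the transgenic ones, and 2 of the pseudogenes, Psmb5-ps and Psmb6-ps, were listed at 0 in all 6. The constitutive gene Psmb5 and the epithelial gene Psmb11 are neighbours in the annotation (GENCODE M21, GRCm38): Psmb5 spans chr14:54614119-54618022 on the minus strand and Psmb11 spans chr14:54621433-54629556 on the plus strand, yet their means were 97.4 and 0.0349 FPKM.

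**Figure D1:**
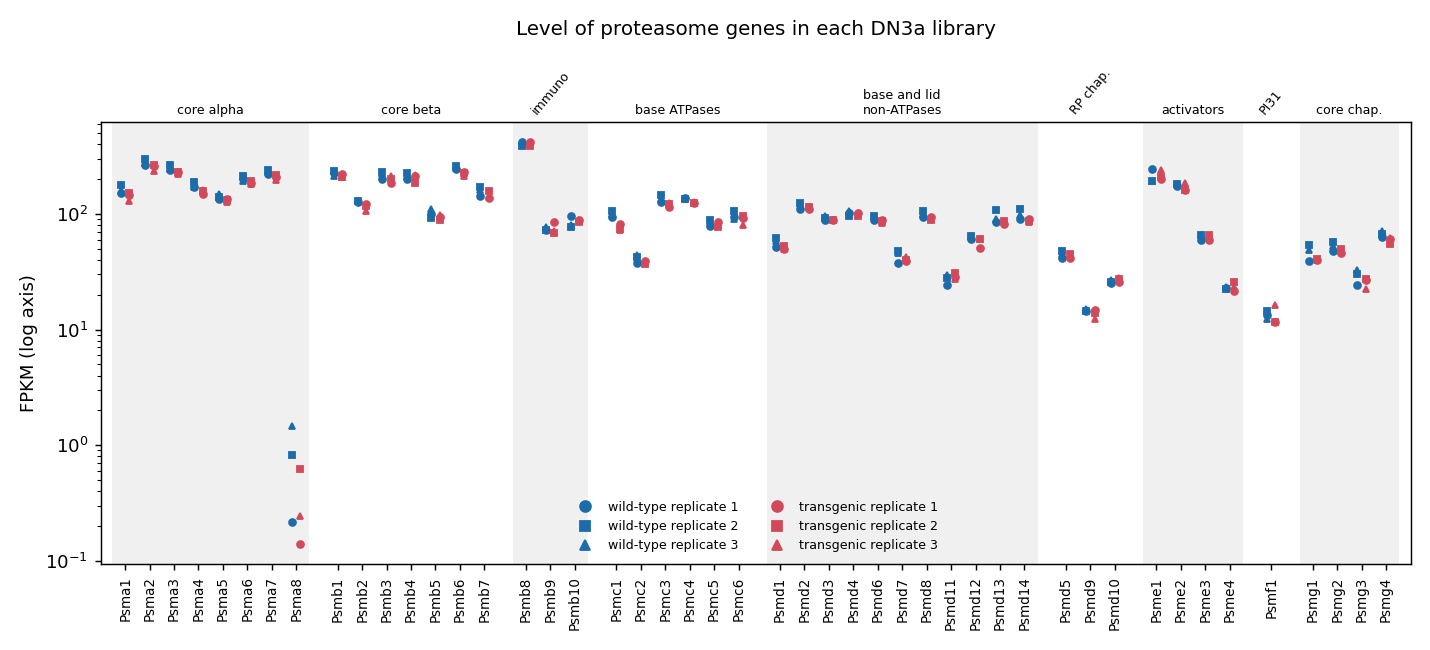
Level of each proteasome gene in FPKM (log axis) in the 3 wild-type (blue) and 3 transgenic (red) libraries, grouped by role; each symbol is 1 library. Psmb8 stands above all others at 389.8 to 421 FPKM, while Psma8 lies near the bottom; Psmb11 and the genes that match by name alone are not drawn.

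Promoter sequences are shown for 4 of the catalytic subunits that are exchanged for one another and for the 3 members with the lowest p-values, since constitutive subunits are known targets of the factor Nfe2l1 and the inducible ones of interferon signalling. RefSeq promoter windows (GRCm38.p6), from 250 bases before to 50 after a transcription start, were matched to 40 of the 48 subunit, activator, inhibitor and chaperone genes. The window of Psmb10 held none of the 3 motifs searched, and Psmb10 and Psmb7 are not shown. Each line below is a stretch of 30 bases, 5′ to 3′ on the strand of the gene, with the match in capitals. 1 match is marked in each. For Psma4, Psmd1, Psmb5, Psmb6 and Psmb9 the capitals mark TGANNNNGC, the core of the antioxidant response element bound by Nfe2l1 and its relatives. For Psmc1 they mark CCAAT, the box bound by the factor NF-Y, and for Psmb8 TTCNNNGAA, the core of the gamma-activated site bound by Stat factors. The stretches are, on GRCm38, chr12:100110015-100110044 (plus) for Psmc1, chr9:54950722-54950751 (plus) for Psma4, chr1:86064385-86064414 (plus) for Psmd1, chr14:54618023-54618052 (minus) for Psmb5, chr11:70525327-70525356 (plus) for Psmb6, chr17:34198088-34198117 (plus) for Psmb8 and chr17:34187371-34187400 (minus) for Psmb9.
Psmc1: ccacatgtttaaCCAATccttgtaccaaac
Psma4: gtgggcagacTGAGCCCGCcccagcactgg
Psmd1: tggcgggtgaTGAGTGGGCctctctttgca
Psmb5: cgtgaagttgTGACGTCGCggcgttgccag
Psmb6: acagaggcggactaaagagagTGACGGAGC
Psmb8: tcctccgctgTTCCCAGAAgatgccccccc
Psmb9: ccttgcgcgaTGATGGGGCggggcctcagt

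The matches lie between the bases 224 and 1 before the RefSeq start sites, that of Psmd1 farthest (224 to 216) and that of Psmb6 nearest (9 to 1). The stretches of Psmc1, Psmb5 and Psmb6 hold no GENCODE feature. That of Psma4 overlaps a coding exon of AY074887 on the other strand, and those of Psmd1, Psmb8 and Psmb9 overlap exons of longer GENCODE transcripts of the same gene, for Psmb8 and Psmb9 in the untranslated part. On both strands, TGANNNNGC occurs in 41.3% of all 32851 RefSeq promoters of this length, and in 15 of the 27 promoters (55.6%) of alpha, constitutive beta and regulatory particle genes. It also occurs in 2 of the 3 immunoproteasome promoters (Psmb8 and Psmb9, 66.7%) and in 3 of the 5 activator promoters (60%), so the letters were not limited to constitutive genes. TTCNNNGAA occurs in 8.3% of all promoters, in 1 of those 27 (Psmd2) and in 1 of the 3 immunoproteasome promoters (Psmb8). CCAAT occurs in 37.4% of all promoters and in 10 of the 27 (37%). The 3 motifs do not contain one another, and a match is a description of the letters alone.

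The series compares genotypes, and for the proteasome the comparison asks whether the subunit messages were altered by the transgene. In edgeR's quasi-likelihood test with Benjamini-Hochberg adjustment at 0.05, none of the 49 members that passed the filter on low counts was called, where 0.0136% of the 14653 genes tested were called. At an unadjusted p under 0.05, 17 members were lower in transgenic cells and 0 were higher, where 7.7% of all genes tested were lower and 5.71% higher at that level. DESeq2 called 3 members lower and 0 higher of 47 with an adjusted p, against 3.36% and 1.72% of all genes: Psmc1, Psma4 and Psmd1. The fitted log2 fold change was below 0 for 44 of the 49 members, against 49.8% of all genes.

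The alpha, constitutive beta and regulatory particle subunits, 32 genes in all, each had a fitted value below 0. Their median was -0.145 on the log2 scale (0.904-fold), beside a median of 0.00109 over all genes and of -0.00648 over the 9034 genes with at least 10 CPM. In 18 of the 32 the 3 transgenic libraries were all below the 3 wild-type ones and in 0 all above, where 10.1% and 8.73% of all genes showed no overlap in those directions. Without Psma8, whose fitted -1.36 (SE 0.77) comes from at most 103 fragments a library, the values ran from -0.42 for Psmc1 to -0.02 for Psmd11, and Psmd11 was above 0 when FPKM values were compared in place of counts. In bulk samples, fewer cells of a type and less RNA per cell cannot be told apart.

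**Figure D2:**
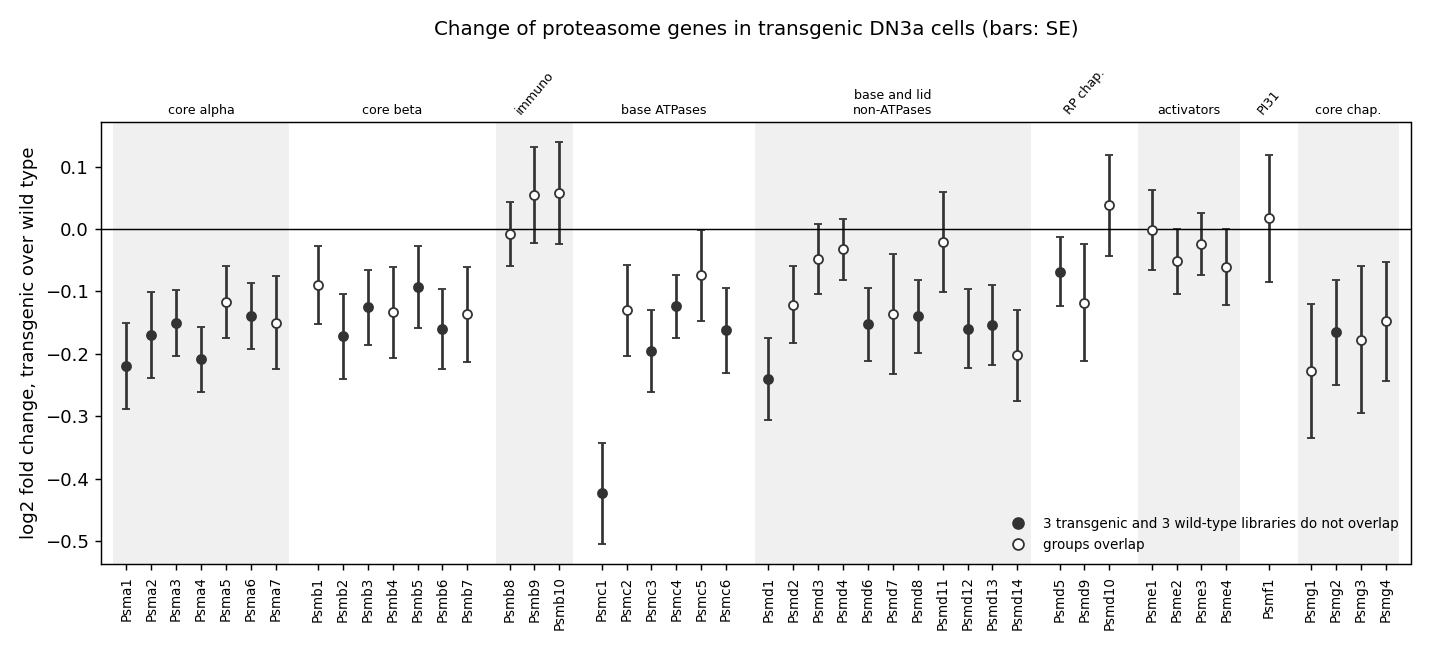
Fitted log2 fold change of transgenic over wild type for each tested subunit, activator, inhibitor and chaperone gene but Psma8, with its standard error as a bar, grouped by role. Filled points mark genes whose 3 transgenic and 3 wild-type libraries do not overlap, and Psmc1 at -0.42 stands lowest while Psmb9 and Psmb10 lie above 0.

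The shift can be read in each library. The mean deviation of log2(CPM + 0.5) from the mean over libraries, averaged over the 32 genes, was -0.016, 0.156 and 0.108 in wild-type replicates 1 to 3 and -0.058, -0.045 and -0.145 in the transgenic ones. The groups did not overlap, but wild-type replicate 1 lay close to transgenic replicates 1 and 2. Between the 2 libraries with Y-linked RNA, 1 of each genotype, the transgenic one was lower by 0.13 (deviations -0.15 and -0.02), and among the 4 libraries without it the transgenic pair was lower by 0.18 (-0.05 and 0.13). The count of members at an unadjusted p under 0.05 depended on single libraries: 17 became 27, 5 and 11 when wild-type replicate 1, 2 or 3 was left out, and 3 when transgenic replicate 3 was.

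The same mean deviation was taken over 6 genes of DNA replication and mitosis (Ccnb2, Bub1b, Rrm2, Cdc45, Mki67, Top2a), picked with earlier results of these data known. It was 0.048, 0.310 and 0.364 in the wild-type and -0.222, -0.143 and -0.357 in the transgenic libraries. All 6 had fitted values between -0.53 and -0.46, and in each the transgenic libraries were below the wild-type ones, as in 10.1% of all genes. DESeq2 called all 6 lower, against 3.36% of all genes, and edgeR 0. Because the 6 were picked with earlier results known, these counts are no independent excess over the shares of all genes. Among the wild-type libraries replicate 1 was lowest here, as it was for the subunits. The markers of double-positive thymocytes given above were also lower in transgenic libraries for 3 of 3 genes. The part of these, of the red cell and myeloid markers and of the 6 genes in the subunit values was not tested.

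**Figure D3:**
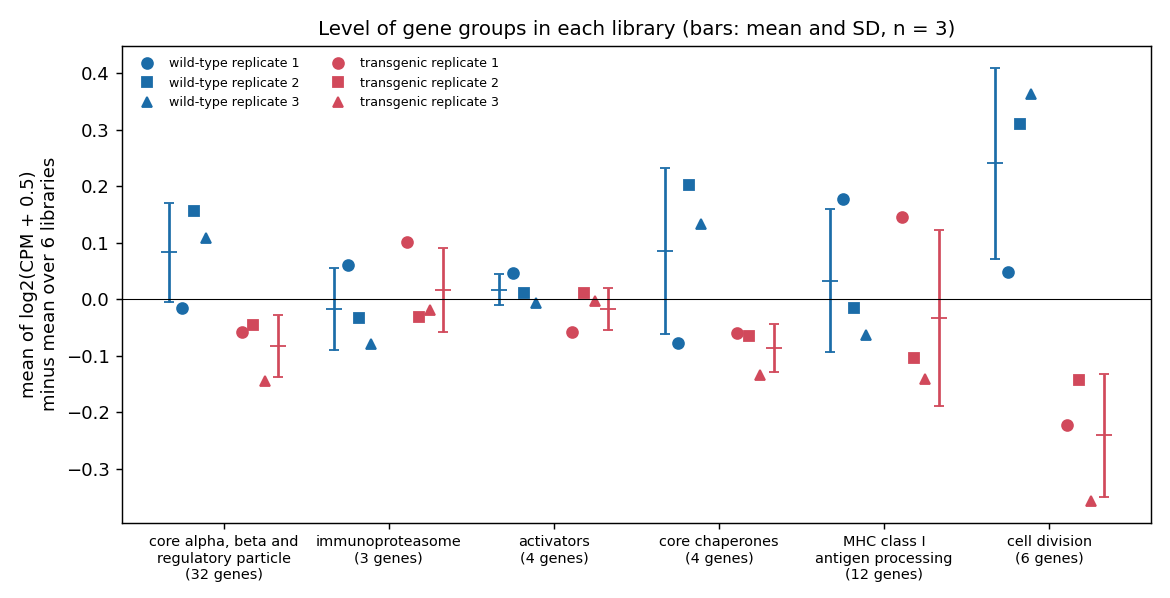
Mean over each gene group of log2(CPM + 0.5) minus its mean over the 6 libraries, for wild-type (blue) and transgenic (red) libraries, with the mean and SD of each group of 3. The 32 core alpha, beta and regulatory particle genes run from 0.156 to -0.145, the 3 immunoproteasome genes overlap between genotypes, and the 6 division genes span from 0.364 to -0.357.

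Among the alpha subunits, which form the outer rings and the gate of the core, 5 of 8 were lower at an unadjusted p under 0.05 and the median log2 fold change was -0.16. Psma4 had 199, 216 and 203 CPM in wild-type replicates 1 to 3 and 177, 178 and 181 CPM in the transgenic ones. The groups were well apart, and the 3 transgenic libraries lay within a few CPM of each other. The fitted log2 fold change was -0.21 (SE 0.05, edgeR adjusted p = 0.170, DESeq2 adjusted p = 0.0263). An exon of Psma4 overlaps AY074887 on the other strand, and no source used here gives the strand setting of the counting. Psma1 had 162, 181 and 174 CPM against 158, 150.0 and 136 CPM, again with no overlap, though transgenic replicate 1 came close to wild-type replicate 1 (-0.22, SE 0.07, edgeR adjusted p = 0.220). Psma3 and Psma6 showed the same order of groups, at -0.15 (SE 0.05) and -0.14 (SE 0.05). Psma2, the most abundant alpha subunit message, had 239, 265 and 249.5 CPM against 237, 229 and 204 CPM, with a narrow gap between the genotypes and a fitted value of -0.17 (SE 0.07).

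All 7 constitutive beta subunits had fitted values below 0, with a median of -0.133. At the unadjusted level 2 of them were lower and 0 higher, where 7.7% and 5.71% of all genes were. Psmb6, the subunit with caspase-like activity, had 185, 198 and 182 CPM in the wild-type and 177, 174 and 155 CPM in the transgenic libraries. The groups did not overlap, and transgenic replicate 3 was lowest (-0.16, SE 0.06, edgeR adjusted p = 0.317). Psmb2 likewise separated, with group means of 101 ± 1.88 and 89.8 ± 7.55 CPM (SD, n = 3) and a fitted value of -0.17 (SE 0.07). Psmb5, which carries the chymotrypsin-like activity, had 75.4, 74.5 and 82.8 CPM against 73.8, 70.9 and 73.4 CPM. Its groups touched without overlapping, and its -0.09 (SE 0.07, edgeR adjusted p = 0.599) was about the size of its error. Psmb7, the subunit with trypsin-like activity, had 152, 181 and 168 CPM against 148, 164 and 143 CPM, with transgenic replicate 2 inside the wild-type range (-0.14, SE 0.08, edgeR adjusted p = 0.480).

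The largest difference of any well-expressed member was in the regulatory particle. Psmc1, an ATPase of the base, had 183, 212 and 192 CPM in wild-type replicates 1 to 3 and 161, 143 and 133 CPM in the transgenic ones. All transgenic libraries were below all wild-type ones, and the spread within each genotype was smaller than the gap between their means, 195 ± 14.8 and 146 ± 14.2 CPM (SD, n = 3). The fitted log2 fold change was -0.42 (SE 0.08), or 0.746-fold, with an edgeR adjusted p of 0.159. It passed the threshold with DESeq2 (adjusted p = 0.000122), in edgeR with no filter on low counts (0.019, where 0.485% of all genes were called lower), with a covariate for Y-linked RNA (0.0135, 1.4%), without wild-type replicate 1 (0.0228, 2.32%) and without both libraries with Y-linked RNA (0.0478, 1.32%). In edgeR it did not pass with median-of-ratios scaling (adjusted p = 0.16), a replicate block (0.0678), failed loci kept (0.0585) or counts per gene ID (0.158). Nor did it pass with limma on log2(FPKM + 0.1) (adjusted p = 0.384) or log2(FPKM + 1) (0.404). Over leave-one-out fits the edgeR adjusted p of Psmc1 ran from 0.0228 to 0.499. No exon of another annotated gene overlaps it.

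The other ATPases differed less. Psmc3 had 249, 287 and 254 CPM against 226, 239 and 225 CPM, with no overlap between genotypes and wild-type replicate 2 highest (-0.19, SE 0.07). Psmc4, the most abundant ATPase message per length, had group means of 241 ± 5.16 and 221 ± 4.90 CPM (SD, n = 3) and a fitted value of -0.12 (SE 0.05). Psmc6 was also apart, and Psmc2 and Psmc5 overlapped. In all, 4 of the 6 ATPases were lower at the unadjusted level, as were 7.7% of all genes, and the median was -0.146.

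Of the 11 base and lid subunits without ATPase activity, 6 were lower at the unadjusted level, as were 7.7% of all genes. None was higher at it, and the median of the 11 was -0.14. Psmd1, a scaffold of the base, had 179, 207 and 199 CPM in the wild-type and 169, 169.8 and 157 CPM in the transgenic libraries. The genotypes did not overlap, and the closest pair was wild-type replicate 1 and transgenic replicate 2 (-0.24, SE 0.07, edgeR adjusted p = 0.189, DESeq2 adjusted p = 0.0302, edgeR without wild-type replicate 1 0.0316). Psmd1 shares exons with Gm21972 on the same strand and with Htr2b on the other, so some of its fragments could belong to those. Psmd14, the lid enzyme that cuts ubiquitin chains off the substrate, had 148, 173 and 157 CPM against 149, 135 and 130.4 CPM. Transgenic replicate 1 lay just above wild-type replicate 1, so its groups overlapped (-0.20, SE 0.07, edgeR adjusted p = 0.276). The lid subunits Psmd6 and Psmd12 separated by genotype, at -0.15 (SE 0.06) and -0.16 (SE 0.06). Psmd4, a ubiquitin receptor of the base, did not, with 164.7 to 169.7 CPM in the wild-type and 159 to 169 CPM in the transgenic libraries.

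The immunoproteasome genes had fitted values near 0. Psmb8 had 537, 535 and 515 CPM in wild-type replicates 1 to 3 and 543, 516.5 and 519 CPM in the transgenic ones. The ranges lay on top of each other (-0.01, SE 0.05, edgeR adjusted p = 0.969). Psmb9, which replaces Psmb6, had 110.4, 109.9 and 108.5 CPM against 129, 103 and 109 CPM, so the transgenic libraries lay above, below and inside a narrow wild-type range (0.05, SE 0.08, edgeR adjusted p = 0.825). Psmb10, which replaces Psmb7, had 133, 110.0 and 105 CPM against 123, 122 and 117 CPM. Wild-type replicate 1 was the highest of all 6, and the transgenic libraries lay between it and the other wild-type ones (0.06, SE 0.08, edgeR adjusted p = 0.819). The signs of these 3 values changed when single libraries were left out, and none of them differed from 0 beyond its error. Within the 2 libraries with Y-linked RNA the mean deviation over the 3 genes was lower by 0.08 in the transgenic one (0.06 and -0.02), and within the other 4 it was higher by 0.09 (-0.06 and 0.04).

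Psmb8 and Psmb9 lie in the MHC region, at chr17:34197721-34201454 on the plus strand and chr17:34181987-34187764 on the minus strand. Psmb9 overlaps an exon of Tap1, the peptide transporter subunit read from the other strand. Tap1 had 239, 203 and 207 CPM against 224, 206 and 192 CPM, with overlapping groups (-0.07, SE 0.08). Psmb10 lies apart from them, at chr8:105935735-105938444 on the minus strand. The activator pair that works with the immunoproteasome gave no separation either: Psme1 had 269.9, 244.5 and 235 CPM against 241, 256 and 252 CPM (-0.002, SE 0.06), and Psme2 had 171, 187.5 and 179 CPM against 176, 170.0 and 173 CPM (-0.05, SE 0.05). For Psme1 the transgenic libraries fell inside the wild-type range, and for Psme2 transgenic replicates 1 and 3 were inside it and replicate 2 just below. Psme3 and Psme4, genes of caps that do not depend on interferon, had fitted values of -0.02 and -0.06 with overlapping groups.

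Ratios within a library compare the parts without any scaling between libraries. The summed FPKM of the 19 core genes was 3223, 3413 and 3305 in wild-type replicates 1 to 3 and 3126, 3085 and 3033 in the transgenic ones, and that of the 17 regulatory particle genes was 1407, 1559 and 1501 against 1366, 1366 and 1355. Both sums were lower in every transgenic library than in every wild-type one. The ratio of core to regulatory particle was 2.29, 2.19 and 2.20 against 2.29, 2.26 and 2.24, with means of 2.23 ± 0.056 and 2.26 ± 0.026 (SD, n = 3; exact two-sided permutation p = 0.4, and 0.4 after Benjamini-Hochberg adjustment over 2 ratios). With 3 libraries on each side the smallest p this test can give is 0.1. Among the 2 libraries with Y-linked RNA the transgenic ratio was 0.977 times the wild-type one, and among the other 4 it was 1.03 times. Set against the ATPases alone, the core stood at 5.64, 5.46 and 5.56 in the wild-type and 5.80, 5.80 and 5.81 in the transgenic libraries, with no overlap and the smallest p possible (exact permutation p = 0.1). This was an alternative form of the ratio, its p was not adjusted, and no other form separated the genotypes. Of the mean ATPase sums of 597 and 531 FPKM, Psmc1 alone held 101 and 76.4 FPKM. Without Psmb8 to Psmb11 in the core, the ratio to the regulatory particle averaged 1.84 in both genotypes.

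The immunoproteasome sums were alike in both genotypes, and the constitutive sums were lower in the transgenic one. Psmb8, Psmb9 and Psmb10 together had 591, 541 and 575 FPKM in the wild-type and 593, 543 and 573 FPKM in the transgenic libraries. Psmb5, Psmb6 and Psmb7 together had 486, 524 and 524 FPKM against 467, 475 and 455 FPKM, with no overlap. Their ratio was 1.22, 1.03 and 1.10 against 1.27, 1.15 and 1.26, a mean of 1.12 ± 0.093 against 1.22 ± 0.069 (SD, n = 3). The transgenic mean was 9.75% higher, but wild-type replicate 1 lay above transgenic replicate 2, and the exact two-sided permutation p was 0.2 (0.4 after adjustment over 2 ratios). The transgenic ratio was 1.03 times the wild-type one between the libraries with Y-linked RNA and 1.13 times among the others.

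Taken subunit by subunit, Psmb8 over Psmb5 averaged 4.08 ± 0.298 in wild-type and 4.34 ± 0.142 in transgenic libraries, Psmb9 over Psmb6 averaged 0.295 ± 0.014 and 0.333 ± 0.032, and Psmb10 over Psmb7 averaged 0.545 ± 0.121 and 0.601 ± 0.058 (SD, n = 3; exact permutation p = 0.3, 0.2 and 0.6). Groups overlapped in all 3 pairs, and no adjusted p over the 3 pairs was below 0.45. In every library, then, the message of Psmb8 exceeded that of the subunit it replaces several times over, whereas those of Psmb9 and Psmb10 stayed below their counterparts.

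**Figure D4:**
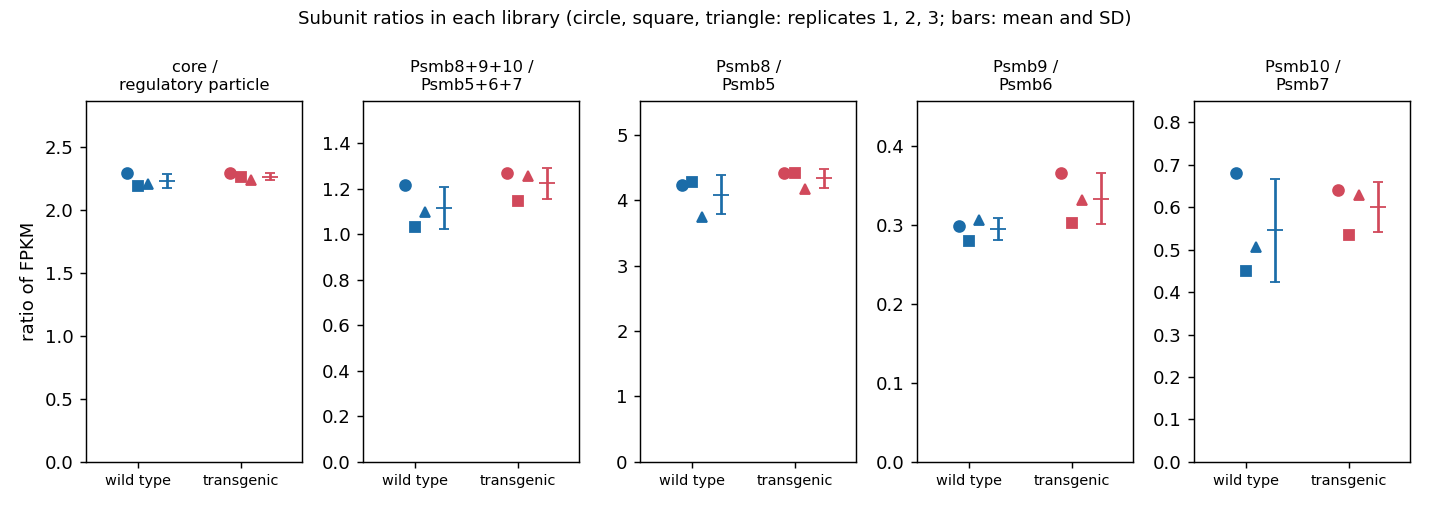
Ratios of summed FPKM in each library: core to regulatory particle, the 3 immunoproteasome to the 3 constitutive catalytic subunits, and each exchanged pair, with the mean and SD of 3 libraries; all axes start at 0. The immunoproteasome ratio averaged 1.12 in wild-type and 1.22 in transgenic libraries with overlapping groups, and Psmb8 over Psmb5 was near 4 in both genotypes.

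The chaperones that assemble the core resembled the subunits in direction, with 4 of 4 below 0 and a median of -0.172. Of the 4, 0 passed the unadjusted level, where 7.7% of all genes were lower and 5.71% higher. Psmg1 had 40.9, 55.1 and 48.1 CPM against 41.7, 41.5 and 39.9 CPM. Wild-type replicate 1 lay within the transgenic range, so the groups overlapped (-0.23, SE 0.11). Psmg2, its partner, did separate, with means of 44.0 ± 3.50 and 39.2 ± 0.891 CPM (SD, n = 3; log2 fold change -0.17, SE 0.08). Psmg3 and Psmg4 had fitted values of -0.18 and -0.15. The chaperones of the regulatory particle gave -0.07 for Psmd5, -0.12 for Psmd9 and 0.04 for Psmd10. Psmf1, an inhibitor of the isolated core in the test tube, stood at 0.02 (SE 0.10), with transgenic replicate 3 highest at 37.2 CPM. Of the genes that match by name alone, Psmc3ip, a cofactor of meiotic recombination, stood at 0.02 and Psme2b, a copy related to Psme2, at -0.15 (SE 0.54) on at most 64 fragments a library.

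Of the other genes of the pathway, in 6 lists, edgeR called 0, where 0.0136% of all genes were called. DESeq2 called 1 lower (Calr) and 1 higher (Stat3), where 3.36% and 1.72% of all genes were. At the unadjusted level 7.7% of all genes were lower and 5.71% higher. Of 11 other proteasome parts and partners, 9 had values below 0 (median -0.0963), and 3 were lower and 1 higher at the unadjusted level. The lower ones were Usp14 (-0.21, SE 0.07) and Txnl1 (-0.19, SE 0.06), a deubiquitinase and a thioredoxin that bind the regulatory particle, and AI314180 (-0.13, SE 0.05), the mouse symbol of the proteasome scaffold Ecm29, whose sign changed on the FPKM scale. The higher one was Zfand5. Of 10 ubiquitin shuttles and Vcp partners, 8 were below 0 (median -0.0457) and 1 was lower at the unadjusted level, the shuttle Rad23b (-0.15, SE 0.06). Nsfl1c stood at -0.11 and the protease Ddi2, which activates Nfe2l1, at 0.07. Of 6 ubiquitin and E1 genes, 4 were below 0 and 0 passed the unadjusted level, with Uba1 at -0.08, Rps27a at -0.08 and Ubb at 0.11.

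Factors that control proteasome genes were evenly split, 6 below and 6 above 0. At the unadjusted level 2 were higher, as were 5.71% of all genes. Nfe2l1, the main activator of the constitutive subunits when proteasome activity falls short, stood at 0.13 (SE 0.07, edgeR adjusted p = 0.464) and its partner Mafk at 0.17 (SE 0.07). Stat3 had 256, 207 and 238 CPM in the wild-type and 286, 279.5 and 298 CPM in the transgenic libraries. It was higher in every transgenic library (0.30, SE 0.08, edgeR adjusted p = 0.176, DESeq2 adjusted p = 0.00466). The 6 interferon response factors held 3 values below and 3 above 0, with 0 at the unadjusted level. Stat2 stood at 0.15, Irf2 at 0.26 and Irf7 at -0.10. Of the 6, 2 (Stat2 and Irf2) were higher in every transgenic library and 0 lower in every one. Over all genes those shares were 8.73% and 10.1%.

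The 12 genes of MHC class I antigen processing, the use to which immunoproteasome peptides are put, also divided evenly, with a median of -0.0318. At the unadjusted level 3 were lower and 0 higher, where 7.7% and 5.71% of all genes were. These 3 were chaperones of the endoplasmic reticulum that serve many other proteins too. Calr had 543, 548.5 and 538 CPM against 492, 478.5 and 464 CPM, with a wide gap between genotypes (-0.18, SE 0.05, edgeR adjusted p = 0.192, DESeq2 adjusted p = 0.0176). Pdia3 and Canx stood at -0.19 (SE 0.06) and -0.16 (SE 0.06). The other 9, Tap1, Tap2, Tapbp, B2m, H2-K1 and H2-D1 among them, had values between -0.09 and 0.10 but for Nlrc5 at -0.33 (SE 0.25), and 0 of them passed the unadjusted level.

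In the authors' deposited table, which tests single transcripts, 195 transcripts of members were tested and 0 were marked significant. In the authors' deposited table the lowest q-value among them was 0.119, for the Psmc1 transcript with a log2 fold change of -0.40 (p = 0.0004). By the most abundant transcript of each gene, 45 of 49 had a negative log2 fold change in the authors' deposited table and 4 a positive one. The same shares over all transcripts were not computed, so these counts have no background beside them. A single transcript held over 90% of the FPKM in 31 members and under 50% in 3. Psmb8 was split, its main transcript ENSMUST00000025196 taking 56.2% of the FPKM of the gene. Its FPKM thus rests partly on how fragments were shared between transcripts of different length. In CPM, which does not use transcript length, Psmb8 was also highest, at means of 529 in wild-type and 526 in transgenic libraries. Psmd2 came next, at 393 and 361.5 CPM.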

How the data were processed

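Total RNA of DN3a thymocytes (3 wildtype and 3 transgenic libraries) was purified on QIAGEN RNeasy Micro columns, and ribosomal RNA was removed with Ribo-Zero Gold, per the labels' protocols. The submitters' processing notes name TopHat2, Cuffdiff and mm10. No source used here gives versions, annotation, read length or strand setting. The table deposited by the authors gives estimated counts of fragments and FPKM for each of 100144 transcripts in each library, per the file headers, and the authors' own log2 fold changes with p-values and q-values. The externally scaled signal and the test score that the authors deposited were not used. The members and all gene lists were chosen with earlier results of these data known.

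Counts and FPKM were summed per symbol. The 197 genes with a transcript marked as failed (HIDATA), 0 members among them, were left out. Expected counts were rounded and tested with edgeR 4.0.16 (R 4.3.3; quasi-likelihood, filterByExpr with minimum count 10 and minimum total 15, TMM, two-sided, no covariate, Benjamini-Hochberg over 14653 genes, threshold 0.05), after a check on simulated data. CPM values are TMM-scaled. Ratios of summed FPKM were compared by exact permutation over libraries. Genes named are Gata3; Psmb5 to Psmb11, Psme1, Psme2 and Tap1; the members with the highest and lowest FPKM of each role; the 12 members with the smallest p in each direction; and the 3 genes with the smallest p of each pathway list. Other members are named to complete a role, chosen after their values were seen. The common biological coefficient of variation, 1 value for all genes tested, was 19.5%. Members above 5 FPKM varied less: the coefficient of variation of their FPKM over the 6 libraries ran from 3.47% (Psmb8) to 16.1% (Psmc1). Alternatives were DESeq2 1.42.0, limma 3.58.1 on log2(FPKM + 0.1) or log2(FPKM + 1), other scaling and filters, a replicate block, a covariate for Y-linked RNA, and leaving out libraries. Promoters are from RefSeq (GRCm38.p6) and positions from GENCODE M21. In that annotation exons of 17 of the 53 members overlap another gene, for 12 of them on the other strand. One gene of a marker list is not reported here. Columns of no labelled sample numbered 0.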

Additional observations from a re-analysis of the deposited data

How the results depend on the processing

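The count of all genes called was 2 in the main edgeR test, 493 with DESeq2, 127 with no filter on low counts, 256 with a covariate for Y-linked RNA, 92 with the failed loci kept, 4 with limma on log2(FPKM + 0.1), 260 without the 2 libraries with Y-linked RNA, and 1 to 498 when 1 library was left out, 498 being without wild-type replicate 1. Members called numbered 3, 1, 1 and 1 with DESeq2, with no filter, with the covariate and without both Y-linked libraries, and 0 to 2 when 1 library was left out. The cause of these differences was not tested.

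The median of the 32 subunits ran from -0.186 (without wild-type replicate 1) to -0.112 (without transgenic replicate 3) over 16 alternatives. In them at least 30 of the subunits with a value stayed below 0, Psmd11 being the exception. Of 53 named genes, 12 changed sign somewhere, none of them called. On the log2(FPKM + 0.1) and log2(FPKM + 1) scales these were Psmd11 (0.097 and 0.094), Psme1 (0.041 and 0.041), Psme4 (0.048 and 0.046), AI314180 (0.060 and 0.059) and Psmf1 (-0.033 and -0.030). Psme1 also turned to 0.0015 with DESeq2, 0.0013 with median-of-ratios scaling, 0.0013 with no filter and 0.00029 with the covariate. Without both Y-linked libraries the turned values were Psmb8 0.011, Psme1 0.049, Psmf1 -0.046, Psmc3ip -0.167, Tap1 0.064 and Irf7 0.044.

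With 1 library left out the lowest and highest values were -0.028 to 0.0089 for Psmb8, -0.042 to 0.12 for Psmb9, -0.0085 to 0.17 for Psmb10, -0.045 to 0.058 for Psme1, -0.083 to 0.074 for Psmf1, -0.093 to 0.11 for Psmc3ip, -0.086 to 0.014 for Psmd11, -0.12 to 0.013 for Tap1, -0.019 to 0.26 for Ubb and -0.37 to 0.073 for Irf7. The ratio of core to regulatory particle, 1.015 times as high in transgenic as in wild-type libraries, was 1.045 times as high against ATPases alone, 0.9996 without Psmb8 to Psmb11 and 1.035 without the 2 Y-linked libraries; the cause was not tested.

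Replicate numbers matched the most alike libraries of the genotypes for replicates 1 and 2 but not for replicate 3. Same-numbered libraries correlated at 0.271, 0.375 and -0.0354 over 10092 genes in their deviations from the group means. Differently numbered ones ran from -0.466 (wild-type replicate 1 with transgenic replicate 2) to 0.300 (wild-type replicate 3 with transgenic replicate 2). With the number as a replicate block 14 genes were called, 0 of them members, and Psme1 turned to 4.59e-05. At the unadjusted level 20 members were lower in this fit, for which the share of all genes was not computed.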

Other observations

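In several gene groups replicate 1 of either genotype stood above the other 4 libraries. The mean deviation of log2(CPM + 0.5) over the 12 genes of MHC class I antigen processing was 0.177 in wild-type replicate 1 and 0.146 in transgenic replicate 1, and between -0.141 and -0.015 in the other 4 libraries. The 3 immunoproteasome genes were also highest in these libraries, at 0.061 and 0.102 against -0.079 to -0.019 elsewhere. The 6 ubiquitin and E1 genes stood at 0.085 and 0.099 there and between -0.113 and 0.023 in the others. This order was noticed in the data and was not tested.

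Wild-type replicate 1 differed from the other wild-type libraries in several assembly genes as well. Its mean deviation over the 4 chaperones of the core (Psmg1 to Psmg4) was -0.078, beside 0.203 and 0.134 in wild-type replicates 2 and 3 and -0.134 to -0.060 in the transgenic libraries.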
